A study of Mus musculus with 58 samples.

Results

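The genes described here are 10 members of the unfolded protein response, the program with which a cell adjusts the folding capacity of its endoplasmic reticulum (ER). They were taken by gene symbol, and all 10 were among the 15171 genes of the deposited count table. Hspa5, Hsp90b1, Calr, Pdia4, Sdf2l1, Dnajb9, Manf and Creld2 encode chaperones, folding enzymes and their helpers in the ER lumen, Herpud1 encodes a membrane protein of ER-associated degradation, and Xbp1 encodes a transcription factor of the response.

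RNA was sequenced from 58 mice, 1 library per mouse, in 8 groups. All mice carried human APOE in place of mouse Apoe by targeted replacement, on a C57BL/6 background, as APOE3 or APOE4, and had both copies of Abca1 or only 1. They are named E3/Abca1+/+ (8 sham and 8 TBI mice), E3/Abca1+/- (7 and 6), E4/Abca1+/+ (7 and 7) and E4/Abca1+/- (7 and 8). At 3 months of age TBI mice received a craniotomy and a controlled cortical impact on the left side, sham mice received the surgery without the impact, and hippocampus and cortex of the injured slice were frozen together after 14 days. Each group held both sexes, 28 female and 30 male mice in all. ABCA1 moves cholesterol and phospholipid onto APOE. Both are germline alleles, so the sham mice of each genotype carried them too.

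The ER folds secreted and membrane proteins. When unfolded protein accumulates there, sensors in its membrane respond. IRE1, encoded by Ern1, cuts the Xbp1 mRNA so that it encodes an active transcription factor. ATF6 moves to the Golgi, is cleaved, and enters the nucleus. PERK, encoded by Eif2ak3, phosphorylates eIF2α, which lowers translation in general and raises that of ATF4. The chaperone genes are classical targets of ATF6 and XBP1, whereas Atf3, Chac1, Asns and Trib3 are classical targets of the PERK and ATF4 arm. In the brain the ER carries out this folding in neurons and glia alike.

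ATF6 and XBP1 act with the factor NF-Y through the ER stress response element, which is the reason the chaperone genes are often treated as 1 program. Its exact copies close upstream of the members are shown here. RefSeq promoter windows (build GRCm38.p6, from 250 bases before to 50 bases after each annotated start) were searched on both strands for CCAAT, 9 bases of any kind, then CCACG (element ERSE), and for ATTGG, 1 base of any kind, then CCACG (element ERSE-II). The 2 patterns share the letters CCACG. A window was found for 9 of the 10 members, and Manf had no entry. ERSE was in the windows of 4 members and in 0.119% of all 32851 windows, ERSE-II was in that of 1 member and in 0.0365% of all windows, and the windows of the other 4 members held neither. Each stretch below is on the strand of its gene, with both ends of the element in capitals. The coordinates given are those of the whole printed stretch, with its flanking bases. In Hspa5 the element began 65 bases before the RefSeq start, at chr2:34772020-34772048 on the plus strand, which GENCODE M21 places in the 5′ untranslated exon of an Hspa5 transcript that starts further upstream. In Hsp90b1 a first copy began 212 bases and a reversed copy 107 bases before the start, at chr10:86705528-86705661 on the minus strand. In Calr a reversed copy began 162 bases before the start, at chr8:84847070-84847098 on the minus strand. In Creld2 a reversed copy began 126 bases before the start, at chr15:88819515-88819543 on the plus strand. In Herpud1 the ERSE-II element began 52 bases before the start, at chr8:94386372-94386392 on the plus strand.
Hspa5: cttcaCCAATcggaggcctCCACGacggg
Hsp90b1: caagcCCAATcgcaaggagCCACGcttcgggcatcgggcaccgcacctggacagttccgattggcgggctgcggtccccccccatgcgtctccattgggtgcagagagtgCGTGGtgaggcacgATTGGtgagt
Calr: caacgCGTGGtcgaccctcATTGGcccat
Creld2: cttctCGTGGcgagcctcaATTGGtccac
Herpud1: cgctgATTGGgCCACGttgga
A match describes letters in a window and does not show that a factor was bound there. Copies that differ from these letters or lie outside the windows were not searched for, so a window without a match can still hold an imperfect copy.

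The members lay on separate chromosomes, but for Calr and Herpud1 on chromosome 8 (GENCODE M21 genes with Entrez identifiers from the table). These were Hspa5 (14828) at chr2:34771970-34777547 on the plus strand, Hsp90b1 (22027) at chr10:86690209-86705509, Calr (12317) at chr8:84841850-84846934, Pdia4 (12304) at chr6:47796141-47813430, Sdf2l1 (64136) at chr16:17130138-17132383, Dnajb9 (27362) at chr12:44205559-44210326 and Manf (74840) at chr9:106838312-106891979 on the minus strand, and Xbp1 (22433) at chr11:5520659-5525893, Creld2 (76737) at chr15:88819646-88826683 and Herpud1 (64209) at chr8:94386438-94395377 on the plus strand.

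The Xbp1 mRNA carries the other sequence on which the reading of these counts turns. IRE1 removes 26 bases from exon 4, shown here in capitals with the coding sequence on either side. The whole printed stretch lies at chr11:5524264-5524319 on the plus strand (GENCODE M21, GRCm38).
Xbp1: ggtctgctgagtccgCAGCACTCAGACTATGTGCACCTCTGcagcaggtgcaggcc
The deposited counts were summed per gene, so they hold the cut and the uncut mRNA together, and the level of Xbp1 given below says nothing about how much of it was cut.

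Total counts ran from 4421308 to 37877346 per mouse, with a median of 8350021 in the 30 Abca1+/+ and 18871446 in the 28 Abca1+/- mice, so depth differed with Abca1 copies. Abca1 itself was lower in Abca1+/- mice by 0.42 on the log2 scale, averaged over 4 groups (SE 0.09, adjusted p = 0.000816, edgeR quasi-likelihood test). By stratum the log2 difference was -0.45 in E3 sham, -0.71 in E3 TBI and -0.36 in E4 sham mice, of which the first alone passed, and in E4 TBI mice it was -0.18 with an interval that included 0 (-0.70 to 0.35). Markers of neurons, astrocytes, microglia and oligodendrocytes were present in every mouse. After TBI, averaged over genotypes, all 5 astrocyte and all 5 microglia markers rose and all 5 neuron markers fell, with the summed microglia markers at 295 to 446 CPM, the count scaled to library size, in sham and 530 to 1056 CPM in TBI mice. Of the other markers 2 of 4 for oligodendrocytes, 3 of 4 for endothelial cells and both of 2 found for B and plasma cells rose, 3 of 7 for hippocampus fell, and 0 of 5 for choroid plexus passed. Scaled to total counts alone, the E4/Abca1+/- TBI mouse numbered 8 had 26.0 CPM of hippocampus markers, against 69.0 CPM in the next lowest mouse. In whole tissue, fewer cells of a type and less RNA per cell cannot be told apart.

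All 10 members were well detected. In the 29 sham mice, scaled per kilobase of exon, Hsp90b1, the ER form of HSP90, had 110 ± 17.2 CPM per kb (mean and SD), Hspa5, the ER form of HSP70 and the central lumenal chaperone BiP, had 105 ± 23.6, and Calr, the calcium-binding lectin chaperone calreticulin, had 97.3 ± 14.2. These were the highest levels of all members. Xbp1 had 34.3 ± 4.80 CPM per kb, Herpud1 29.3 ± 4.10, and Pdia4, a protein disulfide isomerase, 26.2 ± 5.86. Dnajb9, a J-domain partner of HSPA5, had 19.2 ± 1.48 CPM per kb. Manf, a secreted ER protein with neurotrophic activity, had 14.1 ± 2.65, Sdf2l1, which binds HSPA5 and its J-domain partners, 12.7 ± 3.80, and Creld2, a lumenal protein of the disulfide system, 12.1 ± 2.35. Between neighbours in this order the ranges of mean ± SD overlapped, except between Calr and Xbp1 and between Dnajb9 and Manf.

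The members differed in how far they ranged over the 58 mice. Sdf2l1 ran from 7.54 to 28.8 CPM, a 3.82-fold range, Pdia4 from 37.9 to 143 CPM (3.79-fold) and Hspa5 from 247 to 768 CPM (3.11-fold). Creld2 ranged 3.14-fold, Manf 2.56-fold and Herpud1 2.19-fold, while Hsp90b1, Xbp1 and Calr between 1.83-fold and 1.95-fold. Dnajb9 was the steadiest, from 43.0 to 67.7 CPM (1.57-fold).

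**Figure D1:**
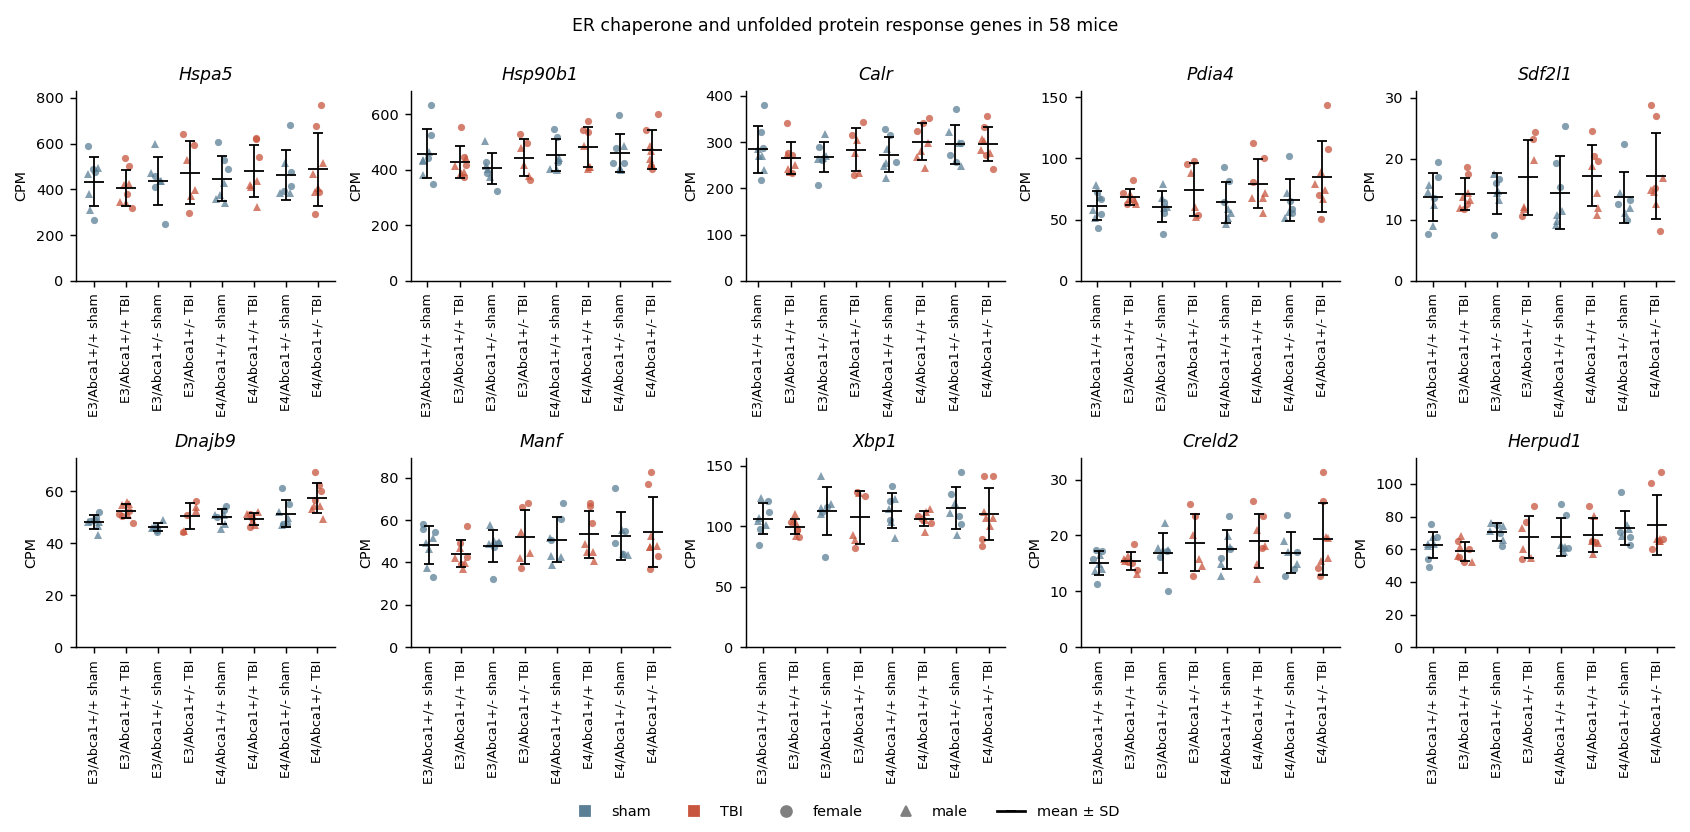
CPM (vertical axis, from 0) of each member in each of the 58 mice, by group; circles are female and triangles male mice, and black marks give the mean and SD. Sham and TBI mice overlap for every member in every genotype, and Dnajb9 has the narrowest spread, from 43.0 to 67.7 CPM.

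The first comparison was that of TBI with sham mice within each genotype. None of the 10 members passed an adjusted p of 0.05 in any genotype (edgeR quasi-likelihood test). This was set against 22.7% of all genes called in E3/Abca1+/+, 23.7% in E3/Abca1+/-, 13.7% in E4/Abca1+/+ and 32.3% in E4/Abca1+/- mice. At an unadjusted p under 0.05 the member counts were 1, 1, 0 and 1, in each case Dnajb9, where 34.6%, 34.4%, 26.6% and 41.5% of all genes were below it. DESeq2's Wald test also called 0 members in each genotype. The median log2 fold change of the members was -0.09, 0.13, 0.09 and 0.07 in the same order, against 0.01, 0.01, 0.00 and 0.03 over all genes. For 0 members were the sham and TBI mice fully separated in any genotype, which they were for 6.39%, 9.96%, 4.52% and 9.75% of all genes in the same order.

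Hspa5, the chaperone that also holds the sensors inactive, had 265, 471 and 590 CPM in E3/Abca1+/+ sham mice (lowest, median and highest) and 317, 399 and 537 CPM in the TBI mice. In E3/Abca1+/- mice it had 247, 436 and 598 CPM in sham and 297, 464 and 644 CPM in TBI mice. In E4/Abca1+/+ mice it had 342, 428 and 609 CPM in sham and 322, 435 and 623 CPM in TBI mice. In E4/Abca1+/- mice it had 384, 413 and 681 CPM in sham and 292, 436 and 768 CPM in TBI mice, so the lowest and the highest injured mouse came from the same genotype. The log2 fold change was -0.09 (95% interval -0.38 to 0.20), 0.11 (-0.28 to 0.51), 0.11 (-0.21 to 0.42) and 0.07 (-0.31 to 0.46) in the 4 genotypes, with adjusted p from 0.705 to 0.797 in the edgeR quasi-likelihood test.

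Averaged over the 4 genotypes in a fit of all 58 mice, Pdia4 and Dnajb9 rose after TBI and the other 8 members did not pass the test. Over all genes this comparison called 53.3%, so that the members' 2 of 10 was a smaller share, and their median log2 fold change was 0.05 against 0.01 over all genes. Pdia4, which forms and rearranges disulfide bonds in the ER, changed by 0.28 on the log2 scale, a 1.21-fold difference (SE 0.09, adjusted p = 0.00625, edgeR quasi-likelihood test).

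Pdia4 had 43.5, 62.1 and 78.1 CPM (lowest, median and highest) in E3/Abca1+/+ sham and 62.4, 66.5 and 82.3 CPM in TBI mice. It had 37.9, 60.2 and 79.0 CPM in E3/Abca1+/- sham and 52.0, 74.0 and 97.9 CPM in TBI mice. All 8 injured E3/Abca1+/+ mice and 4 of 6 injured E3/Abca1+/- mice lay above the median of their shams. It had 46.7, 58.3 and 92.7 CPM in E4/Abca1+/+ sham and 55.6, 71.7 and 113 CPM in TBI mice. It had 51.0, 58.7 and 102 CPM in E4/Abca1+/- sham and 50.5, 76.5 and 143 CPM in TBI mice. Here 6 of 7 and 7 of 8 injured mice were above the sham median, while the lowest E4/Abca1+/- TBI mouse lay below every sham. The 4 separate log2 fold changes were 0.15, 0.30, 0.29 and 0.37, and each interval included 0. With sex as a covariate Pdia4 passed in E4/Abca1+/+ mice (log2 fold change 0.30, adjusted p = 0.0205, edgeR quasi-likelihood test).

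Dnajb9, which helps HSPA5 to bind misfolded clients and restrains IRE1, rose by 0.09 on the log2 scale, a 1.07-fold difference (SE 0.03, adjusted p = 0.00331, edgeR quasi-likelihood test). It had 43.0, 48.4 and 52.1 CPM (lowest, median and highest) in E3/Abca1+/+ sham and 47.8, 51.9 and 56.0 CPM in TBI mice. It had 44.4, 46.0 and 49.2 CPM in E3/Abca1+/- sham and 44.5, 51.7 and 56.3 CPM in TBI mice. In each of these 2 genotypes 4 injured mice stood above all of their shams. It had 45.5, 50.9 and 54.4 CPM in E4/Abca1+/+ sham and 46.4, 49.9 and 52.2 CPM in TBI mice, where 3 of 7 injured mice were above the sham median. It had 47.2, 49.7 and 61.4 CPM in E4/Abca1+/- sham and 49.5, 55.7 and 67.7 CPM in TBI mice, with 7 of 8 injured mice above the sham median. The separate log2 fold changes were 0.12 (95% interval 0.02 to 0.22), 0.13 (0.01 to 0.25), -0.02 (-0.13 to 0.08) and 0.15 (0.00 to 0.30), with adjusted p of 0.0714, 0.100, 0.826 and 0.112 in the edgeR quasi-likelihood test.

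These near misses moved with single mice. Dnajb9 passed in E3/Abca1+/+ mice without sham mouse 5 (adjusted p = 0.0492, edgeR quasi-likelihood test here and below) or without TBI mouse 6 (0.0396). It passed in E3/Abca1+/- mice without TBI mouse 2 (0.0327) or TBI mouse 4 (0.0362). Without E4/Abca1+/- sham mouse 3, which was the highest sham of its genotype for both genes, Dnajb9 (0.0303) and Pdia4 (0.0403) both passed there. In E4/Abca1+/- mice Dnajb9 also passed with sex as a covariate (0.0492) and in the joint fit of all 58 mice (0.0218). The averaged calls of Pdia4 and Dnajb9 held in all 58 fits that left out 1 mouse.

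Sdf2l1 had the next largest averaged change, 0.22 on the log2 scale (SE 0.12, 95% interval -0.01 to 0.45, adjusted p = 0.110, edgeR quasi-likelihood test), and passed only without E4/Abca1+/+ sham mouse 6 (log2 fold change 0.27, adjusted p = 0.0412). That mouse had the highest Sdf2l1 of all shams, 25.3 CPM. Over the 29 sham mice Sdf2l1 had 7.54, 13.7 and 25.3 CPM (lowest, median and highest), and over the 29 TBI mice 8.24, 14.5 and 28.8 CPM. Creld2 differed by 0.12 (95% interval -0.05 to 0.29). Hspa5 differed by 0.05 (-0.13 to 0.24), Hsp90b1 by 0.04 (-0.07 to 0.15), Calr by 0.03 (-0.07 to 0.14) and Manf by 0.03 (-0.12 to 0.19). Herpud1 differed by -0.03 (-0.14 to 0.09) and Xbp1 by -0.08 (-0.19 to 0.03). The intervals of the 3 most abundant chaperones therefore ended at or below 0.24 on the log2 scale.

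**Figure D2:**
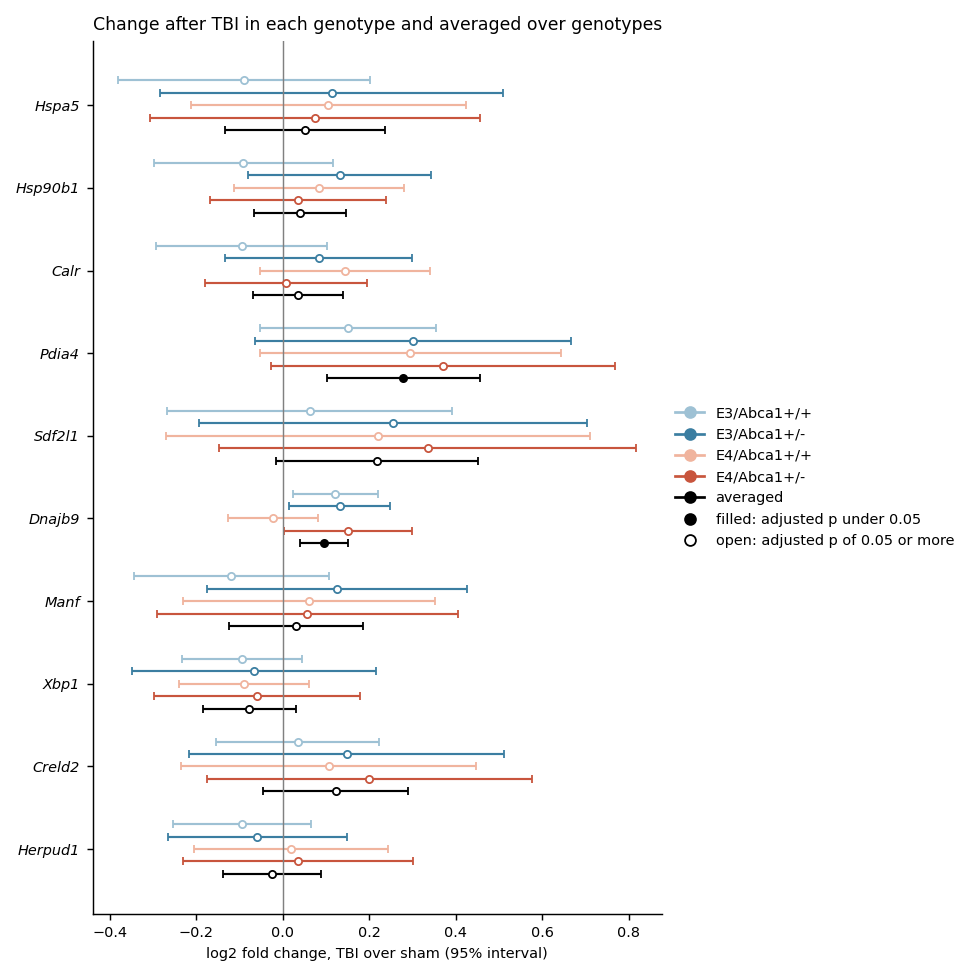
Log2 fold change of TBI over sham (horizontal axis) with its 95% interval for each member in the 4 genotypes (colours) and averaged over them (black); filled points passed an adjusted p of 0.05. Pdia4 (0.28) and Dnajb9 (0.09) are filled, in the average only.

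The other genes of the ER stress and heat shock responses, 91 genes in 8 lists, were compared in the same way. In the averaged comparison 35 of the 91 rose and 16 fell, 56.0% called, close to the 53.3% of all genes. Within genotypes 11 of the 91 rose and 5 fell in E3/Abca1+/+ and 14 and 3 in E3/Abca1+/- mice. They were 7 and 3 in E4/Abca1+/+ and 23 and 8 in E4/Abca1+/- mice. In the same order 22.7%, 23.7%, 13.7% and 32.3% of all genes were called, again lowest in E4/Abca1+/+ and highest in E4/Abca1+/- mice. Values in the next paragraphs are averaged log2 fold changes with adjusted p from the edgeR quasi-likelihood test. The counts per list stand beside 29.0% of all genes that rose and 24.3% that fell in that comparison.

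Of the sensors and their processing enzymes 4 of 10 rose and 1 fell, with a median of 0.04 against 0.01 over all genes. Atf6, the sensor that induces chaperone genes, fell by 0.32 on the log2 scale (adjusted p = 2.64e-11) and fell in each genotype. Creb3l1, a sensor of the same membrane-bound family, rose by 0.50 (adjusted p = 3.35e-06). In the PERK and ATF4 arm 4 of 10 rose and 3 fell. Atf3, a stress-induced transcription factor, rose by 2.40 (adjusted p = 2.46e-17), Nupr1, a stress-induced nuclear protein, by 0.90 and Trib3, a pseudokinase induced through ATF4, by 0.69, whereas Atf4 fell by 0.19 (adjusted p = 3.22e-06) and Asns, asparagine synthetase, fell by 0.12.

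Of the genes of ER-associated degradation 7 of 18 rose and 3 fell, with a median of 0.03, where 29.0% of all genes rose and 24.3% fell. Edem1 and Edem2, mannosidase-like proteins that mark glycoproteins for disposal, rose by 0.45 and 0.37 (adjusted p = 4.06e-10 and 7.71e-14), and both passed in all 4 genotypes. Derl3, a channel component, rose by 0.38. Of the disulfide isomerases and oxidases 6 of 13 rose and 2 fell. P4hb, the archetypal protein disulfide isomerase, rose by 0.26 (adjusted p = 6.63e-09) and passed in all 4 genotypes, Pdia5 rose by 0.29 and Erp29 by 0.19. Of the HSP70 co-chaperones 5 of 10 rose and 0 fell, among them Dnajc3 (0.17) and Sil1 (0.17), a nucleotide exchange factor of HSPA5. Of the lectin chaperones and glycan-trimming genes 3 of 7 rose and 0 fell, by 0.07 to 0.10. Of the translocon genes 5 of 11 rose and 1 fell.

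In the cytosolic heat shock list, a related response outside the ER, 1 of 12 rose and 6 fell, with a median of -0.10. Of all genes 29.0% rose and 24.3% fell. Bag3, a co-chaperone of selective autophagy, rose by 0.53, and Hsph1 and Hspa4l, HSP110-type exchange factors, fell by 0.23 and 0.22. The microglia, astrocyte and neuron markers given above moved with all of these changes, and their part in them was not tested.

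**Figure D3:**
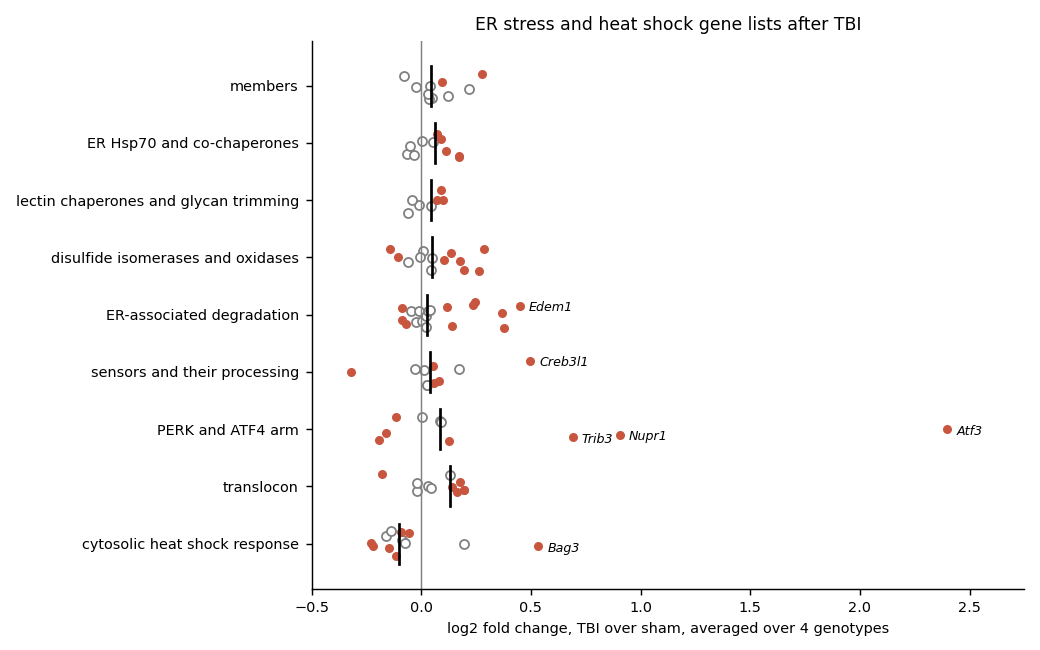
Averaged log2 fold change of TBI over sham (horizontal axis) for the members and for each gene of the 8 lists; filled points passed an adjusted p of 0.05 and the black bar is the median of a list. The members lie between -0.08 and 0.28, while Atf3 in the PERK and ATF4 arm stands at 2.40.

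The second comparison was that of APOE4 with APOE3 mice. Within each stratum of Abca1 copies and injury 0 members passed. The shares of all genes called were 0.356% in Abca1+/+ sham, 0.211% in Abca1+/+ TBI, 5.11% in Abca1+/- sham and 2.74% in Abca1+/- TBI mice. At an unadjusted p under 0.05 the members numbered 0, 3, 1 and 1, against 8.81%, 7.18%, 23.0% and 19.1% of all genes, and DESeq2's Wald test called 0 in each. The members' log2 fold changes ran from -0.06 to 0.22, -0.08 to 0.30, -0.07 to 0.18 and 0.01 to 0.19 in the same order. In the joint fit of all mice 1 member passed among Abca1+/- TBI mice, Dnajb9. The shares of all genes above come from the separate fits, and that of the joint fit is not given here.

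Averaged over the 4 strata, all 10 members were higher in APOE4 mice and 1 passed, with 15.0% of all genes called. These differences were small, from 0.06 to 0.15 on the log2 scale, with a median of 0.10 against 0.00 over all genes. The members vary together, as given below, so their shared direction is not that of independent genes. The passing member was Dnajb9, with 43.0, 48.9 and 56.3 CPM (lowest, median and highest) in the 29 APOE3 mice and 45.5, 51.2 and 67.7 CPM in the 29 APOE4 mice. The ranges overlapped over most of their width. The strata did not all go the same way. Mean CPM in APOE3 and APOE4 mice was 48.2 and 50.3 in Abca1+/+ sham and 52.4 and 49.5 in Abca1+/+ TBI mice. In Abca1+/- mice it was 46.2 and 51.5 in sham and 50.5 and 57.4 in TBI mice. The averaged log2 fold change of Dnajb9 was 0.08 (SE 0.03, adjusted p = 0.0474, edgeR quasi-likelihood test). This call was lost in 32 of the 58 fits that left out 1 mouse, in which adjusted p ran from 0.0255 to 0.0828 over all 58, and under DESeq2's Wald test (0.0531).

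Herpud1, the degradation component with the ERSE-II element, had the next smallest adjusted p in that comparison (0.118, edgeR quasi-likelihood test) with a log2 fold change of 0.13 (95% interval 0.02 to 0.24). Pdia4 differed by 0.15 (-0.03 to 0.32), Creld2 by 0.14 (-0.03 to 0.31), Manf by 0.13 (-0.02 to 0.29), Hsp90b1 by 0.11 (-0.00148 to 0.21), Hspa5 by 0.10 (-0.08 to 0.29), Calr by 0.08 (-0.02 to 0.19), Sdf2l1 by 0.08 (-0.15 to 0.31) and Xbp1 by 0.06 (-0.05 to 0.17). Of the 91 pathway genes 11 were higher and 0 lower in APOE4 mice, 12.1% called against 15.0% of all genes. The PERK and ATF4 arm held the largest of these differences, in Chac1, a glutathione-degrading enzyme (0.57), Atf4 (0.43, adjusted p = 1.39e-14, edgeR quasi-likelihood test) and Asns (0.28). Atf4 passed in all 4 strata.

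The third comparison was that of Abca1+/- with Abca1+/+ mice. Within each stratum 0 members passed in the edgeR quasi-likelihood test and in DESeq2's Wald test. Of all genes 2.27% were called in E3 sham, 0.0923% in E3 TBI, 0.870% in E4 sham and 1.36% in E4 TBI mice. At an unadjusted p under 0.05 the members numbered 1, 0, 0 and 1, against 16.4%, 9.18%, 15.9% and 18.3% of all genes. In E4 TBI mice, the stratum in which Abca1 itself differed least, the joint fit of all 58 mice called 1 member, Dnajb9. The shares of all genes above come from the separate fits, and that of the joint fit is not given here. The log2 fold changes ran from -0.17 to 0.18, -0.05 to 0.29, -0.09 to 0.11 and -0.03 to 0.21. These 4 comparisons share their groups with those of the isoform and the injury.

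Averaged over the strata 0 members passed, with 17.9% of all genes called, and 1 member had an unadjusted p under 0.05, against 30.2% of all genes. That member was Herpud1, which had 49.1, 62.9 and 88.0 CPM (lowest, median and highest) in the 30 Abca1+/+ mice and 54.3, 69.0 and 108 CPM in the 28 Abca1+/- mice. The ranges overlapped, with a log2 fold change of 0.15 (SE 0.06, 95% interval 0.04 to 0.26, adjusted p = 0.0562, edgeR quasi-likelihood test). It passed with genes limited to those with 10 counts in every mouse (adjusted p = 0.0456) and in 13 of the 58 fits that left out 1 mouse. The other 9 members lay between -0.03 and 0.12 on the log2 scale. Among the 91 pathway genes 12 were higher and 5 lower in Abca1+/- mice, 18.7% called against 17.9% of all genes. Among them were Spcs1, a signal peptidase subunit (0.21), and Ssr1, a translocon-associated protein (-0.12). Depth also differed between these mice, as given above.

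The difference of the injury effect between isoforms passed for 0 members, with 0.00659% of all genes called, and 0 members had an unadjusted p under 0.05, against 2.79% of all genes. The difference of the injury effect between Abca1 copies passed for 0 members with 0% of genes called, and again 0 members had an unadjusted p under 0.05, against 2.64%. The difference of the Abca1 effect between isoforms passed for 0 members with 0.0659% of genes called, and 1 member, Dnajb9, had an unadjusted p under 0.05, against 13.5%. DESeq2's Wald test called 0 members in each. The members' values ran from -0.06 to 0.12, from 0.02 to 0.15 and from -0.23 to 0.18 on the log2 scale in these 3 tests. For Dnajb9, which stood at -0.02 in E4/Abca1+/+ mice and at 0.12 to 0.15 in the other genotypes after TBI, the injury effect differed by -0.06 (95% interval -0.17 to 0.05) between isoforms and by 0.09 (-0.02 to 0.20) between Abca1 copies. The Abca1 effect on Dnajb9 differed by 0.18 (0.06 to 0.29) between isoforms (adjusted p = 0.155, edgeR quasi-likelihood test).

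Sex was part of each group and was compared over all 8. All 10 members were higher in female mice and 2 passed, Sdf2l1 and Manf, with 10.1% of all genes called. The median log2 fold change of the members was 0.13 against 0.00 over all genes, and 7 members had an unadjusted p under 0.05, against 25.9% of all genes. The members vary together, as given below, so these counts are not of independent genes. The female mean was higher in 4 of 8 groups for Xbp1, 5 for Dnajb9 and Herpud1, and 6 for Pdia4 and Creld2. For the other members it was higher in 7 of 8 groups. Sdf2l1 had 7.54, 16.9 and 28.8 CPM (lowest, median and highest) in the 28 female and 9.04, 13.3 and 19.8 CPM in the 30 male mice. Both the lowest and the highest Sdf2l1 values came from female mice. The log2 fold change was 0.34 (SE 0.11, adjusted p = 0.0356, edgeR quasi-likelihood test), and the female mean was higher in 7 of 8 groups. Manf had 32.4, 54.5 and 83.0 CPM in female and 36.7, 46.6 and 57.7 CPM in male mice, again with the male range inside the female range. Its log2 fold change was 0.22 (SE 0.07, adjusted p = 0.0374, edgeR quasi-likelihood test), and the female mean was higher in 7 of 8 groups.

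Among the members that missed the threshold, Hsp90b1 differed by 0.15 (adjusted p = 0.0509, edgeR quasi-likelihood test), Hspa5 by 0.22 (0.0928), Calr by 0.12 (0.100) and Pdia4 by 0.20 (0.127). Xbp1 differed by 0.01 (95% interval -0.10 to 0.12). Of the 91 pathway genes 11 were higher and 0 lower in female mice, 12.1% called against 10.1% of all genes. Among them were Dnajc3 (0.17), Pdia3 (0.14) and P4hb (0.13). Total counts were lower in female mice, with a median of 12115260 against 16059756, and both members were refitted with that in view. With log2 total count as a covariate the log2 fold changes were 0.32 for Sdf2l1 and 0.23 for Manf, close to those above, and neither passed (adjusted p = 0.107 and 0.0810, edgeR quasi-likelihood test). With all libraries thinned to the lowest total they were 0.32 and 0.20, and again neither passed (0.0529 and 0.0755). The number of members called ran from 0 to 5 when 1 mouse was left out. It was 0 without E3/Abca1+/- TBI mouse 6, E4/Abca1+/+ sham mouse 6, E4/Abca1+/+ TBI mouse 6 or 7, E4/Abca1+/- sham mouse 1 or 3, or E4/Abca1+/- TBI mouse 3. It was 1 without E3/Abca1+/+ sham mouse 2, E3/Abca1+/- TBI mouse 5, E4/Abca1+/+ TBI mouse 3 or E4/Abca1+/- TBI mouse 8. It was 4 without E3/Abca1+/+ sham mouse 7 or E4/Abca1+/- TBI mouse 4, and 5 without E3/Abca1+/- sham mouse 6.

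Within the groups the members varied together from mouse to mouse. For each gene the group mean of log2(CPM + 1) was taken from each mouse's value, and the remaining deviations were correlated over the 58 mice. Manf tracked Hspa5 most closely of all 15170 other genes (Pearson's r = 0.966, Spearman's rho = 0.965). Pdia4 (r = 0.935), Sdf2l1 (0.935), Calr (0.884), Hsp90b1 (0.884), Creld2 (0.875) and Xbp1 (0.822) followed, with rho from 0.782 to 0.933. Herpud1 (r = 0.673, rho = 0.643) and Dnajb9 (r = 0.448, rho = 0.396) were looser. By r they ranked 59 and 550 among the 15170 other genes, whose 5th and 95th percentiles of r were -0.41 and 0.41. In 100000 permutations of mice within groups, r reached p = 1e-05 for each member but Dnajb9, the smallest value that these permutations can give, and p = 0.00135 for Dnajb9. The largest adjusted value over the 9 relations was 0.00135 for r and 0.00555 for rho. Without the 2 mice farthest in Hspa5, r was 0.961 for Manf, 0.642 for Herpud1 and 0.388 for Dnajb9.

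The relation was also taken within subsets of the mice. For Manf r was 0.971 in sham and 0.962 in TBI mice, 0.956 in Abca1+/+ and 0.973 in Abca1+/- mice, and 0.982 in female and 0.919 in male mice. For every member r was lower in male than in female mice. It ran from 0.259 (Dnajb9) to 0.921 (Pdia4) in male and from 0.494 (Dnajb9) to 0.982 (Manf) in female mice. The group means held both sexes, so a difference between the sexes stayed in the deviations. For Pdia4 r was 0.897 in APOE3 and 0.979 in APOE4 mice. For Xbp1 it was 0.594 in Abca1+/+ and 0.957 in Abca1+/- mice, and for Dnajb9 0.148 and 0.623. These differences between subsets were not tested, and the Abca1+/- libraries were deeper. After thinning to the lowest total count r with Hspa5 was 0.219 for Dnajb9. This gene had the smallest SD within groups of all members, 0.10 on the log2 scale, and counts down to 220. The part of counting noise in its lower r was not tested. Over all 45 pairs of members r ran from 0.374 to 0.966 with a median of 0.773, and the 9 pairs with Dnajb9 did not exceed 0.530.

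The 2 ends of this range show what it means in counts. The E3/Abca1+/- sham mouse 6, a female, had 247 CPM of Hspa5, 325 of Hsp90b1, 208 of Calr, 37.9 of Pdia4, 7.54 of Sdf2l1 and 32.4 of Manf, each the lowest of all 58 mice. The E4/Abca1+/- TBI mouse 3, also a female, had 768 CPM of Hspa5, 143 of Pdia4, 28.8 of Sdf2l1, 83.0 of Manf, 31.5 of Creld2 and 67.7 of Dnajb9, each the highest of all mice. High and low mice stood in sham and TBI groups alike. The E4/Abca1+/- sham mouse 3 had 681 CPM of Hspa5 and 75.4 of Manf, and the E4/Abca1+/- TBI mouse 4 had 292 and 36.8 CPM. The E4/Abca1+/- TBI mouse 8, the lowest in hippocampus markers, had 676 CPM of Hspa5 and the highest Herpud1 of all mice, 108 CPM.

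**Figure D4:**
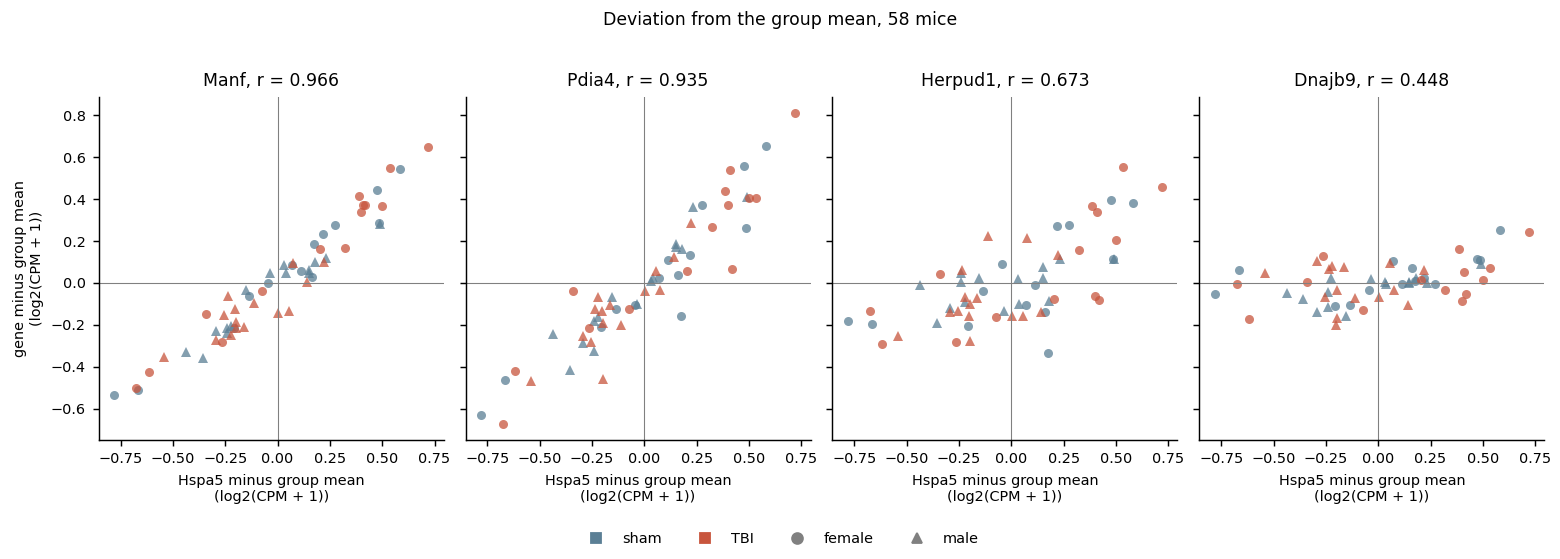
Deviation from the group mean on the log2(CPM + 1) scale of Manf, Pdia4, Herpud1 and Dnajb9 (vertical axes) against that of Hspa5 (horizontal axis), 1 point per mouse, coloured by injury with circles for female mice. Points lie along a line for Manf (r = 0.966) and Pdia4 (0.935) and scatter for Dnajb9 (0.448).

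The 8 genes most like Hspa5 over the 58 mice, by r among all genes tested, were Manf, Pdia6 (r = 0.945), Pdia4, Sdf2l1, Hyou1 (0.924), Pdia3 (0.910), Calr and Hsp90b1. Pdia6 and Pdia3 are disulfide isomerases and Hyou1 is an HSP70-like exchange factor for HSPA5. In all, 19 genes, 0.125% of those compared, had r above 0.8. These were 7 members, 7 genes of the 8 lists and 5 others, while the median r over all genes was 0.01.

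By list, r with Hspa5 had a median of 0.57 for the lectin chaperones, 0.51 for the HSP70 co-chaperones, 0.33 for the disulfide isomerases and oxidases, 0.25 for ER-associated degradation, 0.23 for the translocon, 0.15 for the sensors and -0.07 for the PERK and ATF4 arm. The cytosolic heat shock list had a median of 0.59 and ran from 0.35 to 0.83. These r values are descriptions over the same libraries. The summed markers of choroid plexus, whose level ran from 9.43 to 2042 CPM over the mice, had r = 0.42 with Hspa5. Microglia markers had r = 0.30, astrocyte markers 0.27, hippocampus markers 0.01 and log2 total count -0.17, and the part of any of these in the shared variation was not tested.

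**Figure D5:**
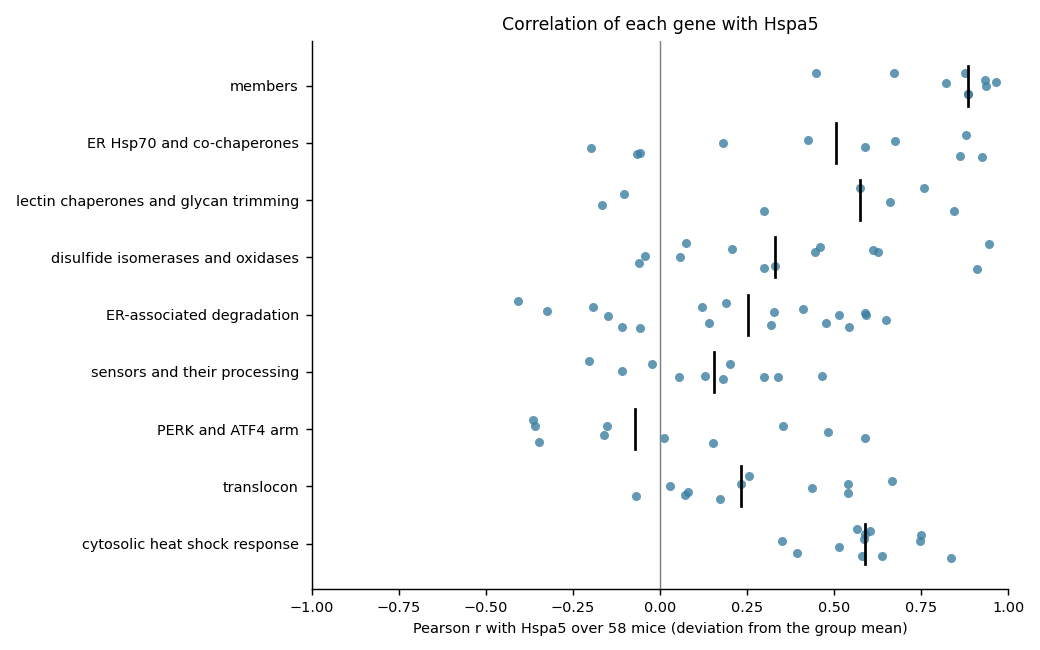
Pearson's r with Hspa5 over 58 mice (horizontal axis), from deviations from the group mean, for each other member and each gene of the 8 lists; the black bar is the median of a list. The members lie between 0.448 and 0.966, and the PERK and ATF4 arm is centred near 0, with a median of -0.07.

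The share of a member's variance that lay between the 8 groups was low for most of them. It was 4.75% for Hspa5, and 98.8% of all genes had a larger share. The median was 11.3% over the members and 29.1% over all genes, where 12.3% is the share that 8 groups of these sizes give on average with no difference. Dnajb9 had the largest share of the members, 44.8%, followed by Herpud1 (21.3%) and Pdia4 (19.7%). Its SD within groups was 0.10 on the log2 scale, against 0.37 for Hspa5, 0.34 for Pdia4 and 0.43 for Sdf2l1.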

How the data were processed

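Bulk RNA-seq libraries of 58 mice were analysed. Per the labels the authors aligned reads to mm10 with Subread 1.5.0 and counted them per gene with featureCounts. The strand setting and the annotation are not given in the sources used here. The deposited table holds whole-number counts for 15171 genes, with 2 blank lines left out and 23 symbols turned into dates. All 10 members were found, and 0 of 183 pairs of libraries within a group were identical.

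Total counts ran from 4421308 to 37877346. The lowest count of a member in a mouse was 61. Counts scaled to library size (CPM) used TMM factors (0.954 to 1.04) over all 58 libraries. edgeR 4.0.16 (R 4.3.3) quasi-likelihood tests were fitted to all genes, filterByExpr removed 0 genes, and p-values were adjusted by Benjamini-Hochberg over 15171 genes with a threshold of 0.05. Comparisons of 2 groups used those groups only. Averaged effects and interactions used 1 fit of 8 group means, with sex added for the female and male comparison. Fold changes are log2 with SE or 95% interval, and per-kilobase levels used merged GENCODE M21 exons. Alternatives were DESeq2 1.42.0 size factors and Wald test, other count filters, thinning, sex or depth as covariates, 1 joint fit, and leaving out single mice. The fitting code was tested on simulated data.

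The members and the lists of pathway and marker genes were chosen with earlier results of these data known. Named besides the members were at most 3 genes per list, comparison and direction with the largest change among those passing, and the 8 genes with the highest r with Hspa5. The comparisons share groups. Reads of overlapping genes cannot be assigned with certainty where strand is not known.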

Additional observations from a re-analysis of the deposited data

Results flagged for a closer look

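Each member was searched in each of the 8 groups, 80 sets of 6 to 8 mice, for a highest or lowest mouse set apart from the rest of its group by Dixon's criterion. For normally distributed values of equal spread this criterion picks about 1 set in 20 by chance, and it picked 10. Female mice spread more widely than male mice, as given below, and the share picked over all genes is not given. No excess is therefore read from this count. These came from 5 mice, 4 of them female, and sets of members that vary together are not independent.

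The E4/Abca1+/- sham mouse 3 was picked for 4 members. It had 102 CPM of Pdia4 where the other shams had 51.0 to 71.9 CPM, and 22.5 CPM of Sdf2l1 where the others had 9.90 to 14.5 CPM. It had 75.4 CPM of Manf against 43.4 to 55.2 CPM, and 94.8 CPM of Herpud1 against 62.7 to 74.9 CPM. The E3/Abca1+/- sham mouse 6 was the lowest of its group, with 7.54 CPM of Sdf2l1 against 13.3 to 17.6 CPM and 32.4 CPM of Manf against 47.4 to 57.7 CPM. The E3/Abca1+/+ TBI mouse 5 was the highest of its group, with 554 CPM of Hsp90b1 against 374 to 447 CPM and 342 CPM of Calr against 233 to 277 CPM. In the same group TBI mouse 7 had 82.3 CPM of Pdia4 against 62.4 to 71.4 CPM. The only male mouse picked was the E3/Abca1+/- sham mouse 1, with 49.2 CPM of Dnajb9 against 44.4 to 46.4 CPM.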

How the results depend on the processing

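No pairs were analysed, because each library came from a different mouse and the authors describe random assignment to sham or injury. The labels give no replicate numbers, so mice were numbered in accession order. Of 630 alternative values for 80 member results, 605 kept direction and side of the threshold, 10 lost a call, 6 gained 1 and 9 changed sign. With sex as a covariate 1 member passed after TBI in E4/Abca1+/+ (Pdia4) and 1 in E4/Abca1+/- mice (Dnajb9), and the joint fit gave 1 (Dnajb9) after TBI in E4/Abca1+/- mice, 1 for the isoform in Abca1+/- TBI and 1 for Abca1 in E4 TBI mice. The averaged isoform call of Dnajb9 was lost (0 members) under DESeq2's Wald test (adjusted p = 0.0531), a minimum of 10 counts (0.0522), thinning (0.177), the depth covariate (0.0528) and without the mouse lowest in hippocampus markers (0.0611). The share of all genes called is not given for the joint fit. For Abca1 copies the minimum of 10 counts gave 1 member. Between the sexes thinning and the depth covariate gave 0 members, and leaving out that mouse gave 1, Sdf2l1, with Manf lost (0.0526), while Hsp90b1 passed under DESeq2's Wald test (0.0387) and the minimum of 10 counts (0.0465).

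Without the same mouse the log2 fold change after TBI in E4/Abca1+/- mice was -0.00748 for Hspa5, -0.0181 for Calr, -0.0314 for Manf and -0.0585 for Herpud1. It was -0.00151 for Hsp90b1 after thinning, and for Calr -0.0149 with DESeq2 size factors and -0.0202 in the Wald test. Hsp90b1 stood at 0.10 for Abca1 copies with the depth covariate, and Xbp1 at -0.00371 between the sexes without that mouse. The cause was not tested. None of these passed in either direction.

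Leaving out each mouse gave 0 to 1 members after TBI in both E3 genotypes, 0 to 2 in E4/Abca1+/-, 2 to 3 averaged, 0 to 1 for the isoform, 0 to 1 for Abca1 copies and 0 to 5 between the sexes. In E4/Abca1+/- mice it gave -0.0350 to 0.0713 for Calr, -0.0585 to 0.11 for Herpud1, -0.0227 to 0.11 for Hsp90b1, -0.0491 to 0.19 for Hspa5, -0.0537 to 0.17 for Manf and -0.12 to 0.00490 for Xbp1. In E4/Abca1+/+ mice it gave -0.00151 to 0.20 for Creld2, -0.0418 to 0.0960 for Herpud1 and -0.00728 to 0.15 for Manf. In E3/Abca1+/+ mice it gave -0.0366 to 0.0685 for Creld2 and -0.0487 to 0.13 for Sdf2l1, and between the sexes -0.00371 to 0.0387 for Xbp1. The Abca1 call of Herpud1 appeared without E3/Abca1+/+ TBI mouse 1 or sham mouse 6, E3/Abca1+/- TBI mouse 2 or 4, E4/Abca1+/+ TBI mouse 2 or 6 or sham mouse 6 or 7, and E4/Abca1+/- TBI mouse 1, 2, 4 or 7 or sham mouse 7. Alternatives for the correlations were chosen after seeing the data, and r of Hspa5 and Dnajb9 moved most, to 0.219 after thinning.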

Other observations

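The genes named here were chosen after their values were seen. Among all genes, deviations from the group mean of several genes outside the ER followed those of Hspa5 over the 58 mice. Chordc1, an HSP90 co-chaperone of the cytosol, had r = 0.865 (rho = 0.845) and ranged from 47.5 to 97.6 CPM. Hsph1 had r = 0.835 (rho = 0.852), and the inducible cytosolic HSP70 gene Hspa1b had r = 0.745 (rho = 0.748). The lowest r of all genes belonged to Hnrnpdl, an RNA-binding protein gene (r = -0.841, rho = -0.826), and the next lowest to Cirbp, the cold-inducible RNA-binding protein gene (r = -0.788, rho = -0.780). Cirbp had r = -0.823 in sham and -0.758 in TBI mice, and -0.892 in female and -0.493 in male mice. Without the 2 mice farthest in Hspa5, r was -0.771 for Cirbp and 0.847 for Chordc1. These values are descriptions without a test.

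The members also spread more widely in female than in male mice. The ratio of the female to the male SD within groups had a median of 1.95 over the members and 1.10 over all genes, and 1.41% of all genes had a ratio above the members' median. It was 2.44 for Manf, 2.26 for Herpud1, 2.18 for Sdf2l1 and 2.07 for Hspa5, and 1.35 for Dnajb9. The difference in spread was not tested.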
